A study of Danio rerio with 2 samples.

Results

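Genes of the skeletal muscle contractile apparatus and of the myogenic programme were followed in RNA sequencing of kdrl:GFP+ cells sorted from zebrafish (Danio rerio) embryos. The set was defined by gene name: 38 listed genes for the thick and thin filaments, the Z-disc, calcium handling, energy supply, myosin assembly and muscle specification, plus every gene whose name starts with tnni2, tnnt3 or tnni1. Some symbols in the name table follow the human gene rather than the zebrafish paralog, so mylpfa and mylpfb appear as 2 genes named myl11, acta1a and acta1b as 2 genes named acta1, and ttn.1 and ttn.2 as 2 genes named ttn. With such names accepted, 54 genes were members, out of 21699 genes in the 2 tables. Of the members, 49 were listed in both libraries, 1 in the mutant library alone, 1 in the sibling library alone and 3 in neither. The rule uses names alone and no measured value, but the members were chosen with earlier results of these data known.

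The libraries compared were 1 of mutant embryos and 1 of siblings. The first came from morphologically mutant embryos and the second from siblings of normal appearance, both at 44 hours post fertilization, from a cross that carried the gbf1 allele tsu3994 and the Tg(kdrl:GFP) transgene. Both groups therefore carry the reporter, in which the promoter of the VEGF receptor gene kdrl drives green fluorescent protein in endothelial cells. Embryos were assigned by their appearance, so the normal siblings can include carriers of the allele, and the number of embryos in each library is not given in the sources used here. There was 1 library per group, so no test between the conditions could be made, and every difference below is a difference between these 2 libraries.

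Skeletal muscle fibres contract when myosin of the thick filament pulls on actin of the thin filament, under the control of calcium that the troponin complex senses. Fast fibres use fast myosin heavy chains and hold much parvalbumin, a cytosolic calcium buffer that speeds relaxation, whereas slow fibres use their own myosins. The basic helix-loop-helix factors Myf5, Myod1 and Myog specify muscle precursors and switch on these genes, and their own transcripts are much less abundant than those of the filaments. Muscle fibres are not the cells that kdrl:GFP labels.

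The mutant library had 6169373 expected counts over 20511 listed genes and the sibling library 5657525 over 20420 genes. gbf1 was at 6.13 FPKM in the mutant library and 3.44 FPKM in the sibling library, and the labels do not name the lesion, so this value does not check the genotype. FPKM is the deposited fragment count scaled to transcript length and library size. Of the 20 listed genes of an endothelial marker list, 17 passed the limits given below, and 14 of these were at least 2-fold higher. All 17 passed the limits in the mutant library, but only 9 in the sibling library. Some of the 14 thus entered only through the library where they were high. The summed level of the 20 was 373 FPKM in the mutant library and 104 FPKM in the sibling library. Of 12 listed erythroid markers none of the 11 past the limits differed 2-fold, with summed levels of 280671 and 368915 FPKM in the mutant and sibling libraries. Of 13 epidermal markers 6 were at least 2-fold lower, with summed levels of 805 FPKM in the mutant and 1235 FPKM in the sibling library. All 13 passed the limits in the sibling library but only 9 in the mutant library. Some of the 6 thus entered only through the sibling library, where they were high. Past the limits, 1 of 13 neural markers was lower, none of 6 cartilage and fin markers was called and 5 of 11 sclerotome and fibroblast markers were higher. The lower neural marker and some of the 5 higher markers also entered only through the library where they were high. Beside the calls of all these lists, 1.05% of all 8640 genes past the limits were lower and 7.72% higher. Of the listed genes of the endothelial, erythroid and epidermal lists, 1 was at 0 in a library, the slc4a1 gene ENSDARG00000024560 in the sibling library. The part these other cell types play in the muscle values was not tested.

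Most filament genes stood several-fold lower in the mutant library. The difference of a gene is given as log2((mutant FPKM + 1)/(sibling FPKM + 1)), called the log2 fold here, and a gene was called lower or higher at a log2 fold of at most -1 or at least 1. Calls were limited to genes that reached 5 FPKM and 20 expected counts in 1 library or both. Of 29 members past these limits, 23 were lower and 1 was higher, while of all 8640 genes past them 1.05% were lower and 7.72% higher. The 23 members made up 25.3% of the 91 genes called lower. The median log2 fold was -1.71 over the 29 members and 0.27 over all 8640 genes, a distance of -1.98. Of the 29, 21 passed the limits in both libraries, 1 in the mutant library alone and 7 in the sibling library alone, so some entered the count only through the library where they were high. Over all 51 listed members the median log2 fold was -0.91. With the limit lowered to 1 FPKM and no minimum count, 25 of 41 members were lower and 1 higher, beside 1.85% and 7.63% of 15792 genes. In these bulk libraries, fewer muscle cells and less muscle RNA per cell cannot be told apart.

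**Figure D1:**
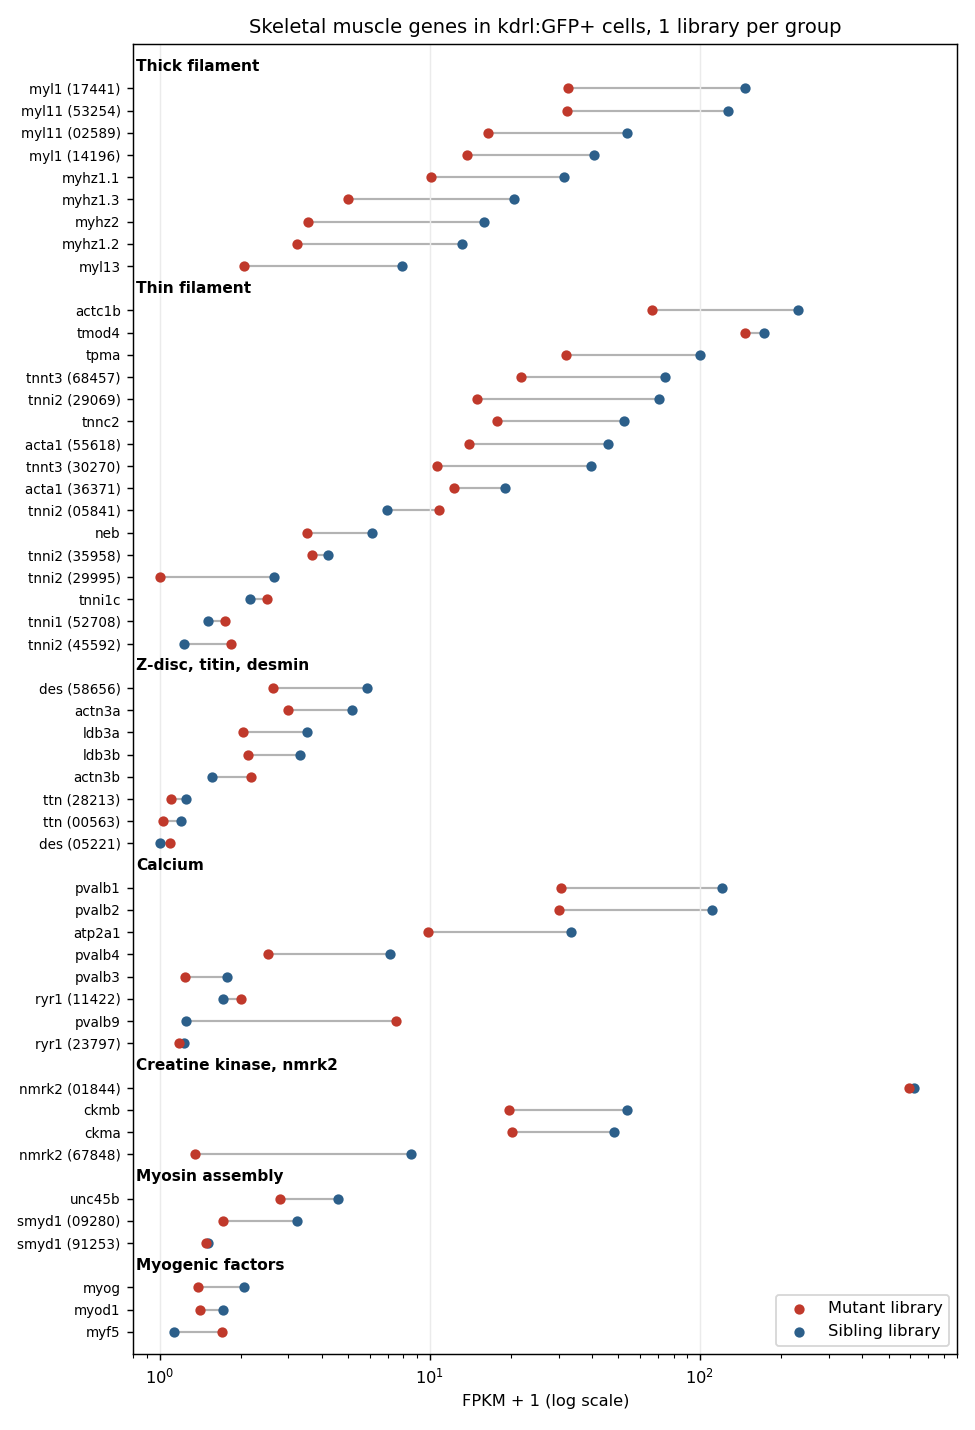
FPKM + 1 on a log axis for the 51 listed members in the mutant library (red) and the sibling library (blue), grouped by role, with 1 library per group and no error bars. The last 5 digits of the Ensembl ID follow a name that several genes share. Most filament, parvalbumin and creatine kinase genes sit to the left in the mutant library, while tmod4 and the nmrk2 gene ENSDARG00000101844 hardly move in FPKM and pvalb9 sits to the right.

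All 9 genes of the thick filament were called lower, beside 1.05% of all 8640 genes past the limits. All 9 passed the limits in the sibling library but only 5 in the mutant library. Some thus entered the count only through the sibling library, where they were high. The myl1 gene ENSDARG00000017441, an alkali myosin light chain, was at 31.6 FPKM in the mutant library and 146 FPKM in the sibling library. Its expected counts of 183 in the mutant and 777 in the sibling library gave a ratio per library total of 0.216, with a 95% counting interval of 0.183 to 0.254. This exact binomial interval covers counting error only, and the spread between embryos or between sorts is unknown. The other gene named myl1, ENSDARG00000014196, was at 12.7 FPKM in the mutant and 39.5 FPKM in the sibling library (count ratio 0.320, 0.248 to 0.411). Both genes were thus called lower, and whether their ratios differ from each other was not tested.

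The regulatory light chain genes named myl11 had overlapping ratios. ENSDARG00000053254 was at 31.3 FPKM in the mutant and 126 FPKM in the sibling library (count ratio 0.247, 0.216 to 0.282), and ENSDARG00000002589 was at 15.4 FPKM in the mutant and 52.6 FPKM in the sibling library (0.295, 0.218 to 0.393). The files do not say which of them is mylpfa and which mylpfb. myl13, a further myosin light chain gene, was much less abundant, at 1.06 FPKM in the mutant and 6.89 FPKM in the sibling library, with 6 and 36 counts in the mutant and sibling libraries (0.153, 0.0526 to 0.366).

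The fast myosin heavy chain genes myhz1.1, myhz1.2 and myhz1.3 follow one another directly among the protein-coding genes of the RefSeq assembly GRCz12tu, but no sequences were compared. Their expected counts and those of myhz2 were not whole, so some reads were divided between genes. The sum of the 4 is less exposed than each value to reads divided among them. Together the 4 genes held 680 counts in the mutant library and 2700 in the sibling library, a ratio of 0.231 (0.212 to 0.251). myhz1.1 was the most abundant of the 4 at 9.12 FPKM in the mutant and 30.5 FPKM in the sibling library, and its ratio of 0.298 (0.263 to 0.336) was the least reduced. myhz1.3 stood at 4.0 FPKM in the mutant and 19.5 FPKM in the sibling library, with a ratio of 0.205 (0.170 to 0.244). myhz2 was at 2.54 and 14.9 FPKM (0.169, 0.135 to 0.211) and myhz1.2 at 2.22 and 12.2 FPKM (0.181, 0.142 to 0.229) in the mutant and sibling libraries. The order from most to least abundant was thus the same in both libraries. The interval of myhz1.1 did not overlap those of the other 3, although reads divided between copies bear on all 4.

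The thin filament was lower too, but with more exceptions. Of 19 members 16 were listed, 11 passed the limits and 7 of these were called lower, beside 1.05% of all genes. actc1b, the most abundant actin gene of the set, was at 65.5 FPKM in the mutant library and 231 FPKM in the sibling library, with 522 and 1695 counts in the mutant and sibling libraries (ratio 0.283, 0.256 to 0.312). The acta1 gene ENSDARG00000055618, a skeletal alpha-actin, was at 13.0 FPKM in the mutant and 44.8 FPKM in the sibling library (0.290, 0.234 to 0.354). Its paralog ENSDARG00000036371 differed less, at 11.3 FPKM in the mutant and 18.1 FPKM in the sibling library (0.624, 0.489 to 0.799), and was not called. The paralogs therefore stood 1.15 times apart in the mutant library and 2.48 times apart in the sibling library. Summed over the 3 actin genes the counts were 762 in the mutant and 2260 in the sibling library, a ratio of 0.309 (0.284 to 0.336).

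Tropomyosin and the fast troponins, which sit on actin and make contraction depend on calcium, were lower by similar factors. tpma, an alpha-tropomyosin gene, was at 31.0 FPKM in the mutant and 99.2 FPKM in the sibling library (count ratio 0.311, 0.269 to 0.357). tnnc2, the calcium-binding subunit of fast muscle, was at 16.7 FPKM in the mutant and 51.6 FPKM in the sibling library (0.314, 0.252 to 0.389). The tropomyosin-binding subunit is encoded by 2 genes named tnnt3. ENSDARG00000068457 was at 20.7 FPKM in the mutant and 73.2 FPKM in the sibling library (0.284, 0.231 to 0.348), and ENSDARG00000030270 at 9.65 FPKM in the mutant and 38.7 FPKM in the sibling library (0.248, 0.187 to 0.326).

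The inhibitory subunit family, tnni2, was split. ENSDARG00000029069 was the abundant copy in the sibling library and was called lower, at 13.95 FPKM in the mutant and 69.7 FPKM in the sibling library (count ratio 0.199, 0.150 to 0.261). ENSDARG00000005841 went the other way, at 9.82 FPKM in the mutant and 5.96 FPKM in the sibling library, with 229 and 128 counts in the mutant and sibling libraries (1.64, 1.32 to 2.05). This higher value was short of the 2-fold limit and kept its direction under each scaling tried. Its listed length of 3676 bases is far above the 764 bases of ENSDARG00000029069. The other 4 tnni2 genes were at or below 3.19 FPKM: ENSDARG00000035958 stood at 2.66 FPKM in the mutant and 3.19 FPKM in the sibling library, ENSDARG00000045592 at 0.84 and 0.23 FPKM in the mutant and sibling libraries, ENSDARG00000029995 was listed in the sibling library alone with 7 counts, and ENSDARG00000013752 was not listed. Of the tnni1 genes, which encode troponin I of slow and embryonic muscle, tnni1c was at 1.5 FPKM in the mutant and 1.16 FPKM in the sibling library and the tnni1 gene ENSDARG00000052708 at 0.75 and 0.51 FPKM in the mutant and sibling libraries. With at most 7 counts each, these values could not show a difference, and ENSDARG00000000474 and tnni1d were not listed.

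The last thin filament genes act along its length and at its end. neb, which encodes the giant ruler protein nebulin, was at 2.53 FPKM in the mutant and 5.14 FPKM in the sibling library, with 27 and 46 counts in the mutant and sibling libraries (ratio 0.538, 0.322 to 0.884). Its listed length of 1707 bases in the mutant and 1555 bases in the sibling table is short for so large a protein. tmod4, a tropomodulin that caps the pointed end of actin filaments, was at 146 FPKM in the mutant and 172 FPKM in the sibling library. Its 1571 and 1700 counts in the mutant and sibling libraries gave a ratio of 0.847 (0.791 to 0.908), outside the interval of every member called lower.

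**Figure D2:**
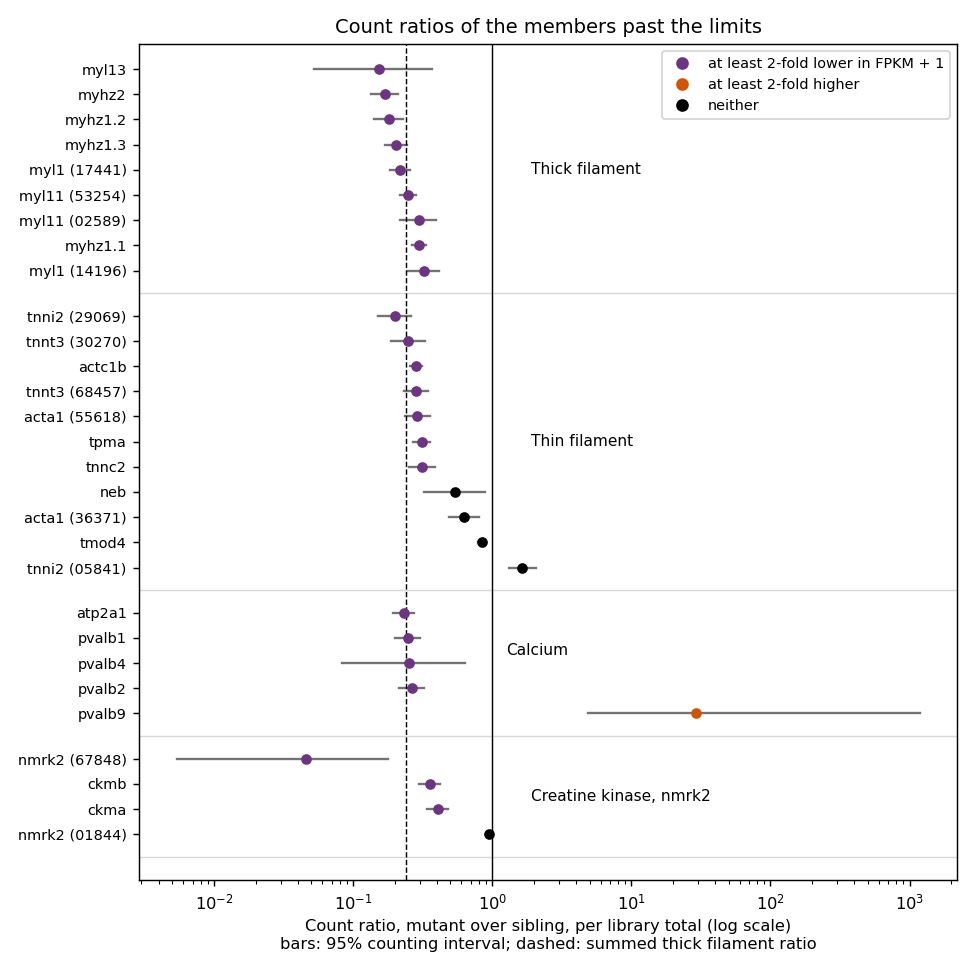
Ratio of expected counts per library total, mutant over sibling, on a log axis for the 29 members past the limits, with 95% counting intervals. Purple points were called lower on FPKM + 1, the orange point higher and black points neither. The dashed line marks the summed thick filament ratio of 0.238, which 13 of the 23 lower members hold within their intervals.

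Genes of the Z-disc, titin and desmin were all under the limits for a call, yet most of their counts pointed the same way. Summed over the 8 listed genes there were 150 counts in the mutant and 368 in the sibling library, a ratio of 0.374 (0.307 to 0.453). The desmin gene ENSDARG00000058656, which encodes the intermediate filament that links neighbouring Z-discs, was at 1.62 FPKM in the mutant and 4.86 FPKM in the sibling library (0.324, 0.178 to 0.563), just under the limit of 5 FPKM. A further gene named des, ENSDARG00000005221, had 1 count, in the mutant library, and the files do not say which of the pair is desma. The titin genes, which encode the molecular spring between Z-disc and M-line, were low per length with listed lengths of at least 67597 bases. Together they held 57.0 counts in the mutant and 179 in the sibling library (0.292, 0.213 to 0.395). ENSDARG00000000563 had 12.0 and 77.7 counts in the mutant and sibling libraries (0.142, 0.0699 to 0.261), and ENSDARG00000028213 had 45.0 and 101 (0.407, 0.281 to 0.586). The log2 fold on FPKM + 1 was only -0.22 and -0.18 for these titin genes, because the added 1 exceeds their FPKM.

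The alpha-actinin and Ldb3 genes, whose proteins cross-link actin and bind alpha-actinin at the Z-disc, were similar with 1 exception. actn3a was at 1.99 FPKM in the mutant and 4.16 FPKM in the sibling library (count ratio 0.476, 0.318 to 0.703). ldb3a stood at 1.03 and 2.53 FPKM (0.346, 0.134 to 0.821) and ldb3b at 1.12 and 2.31 FPKM (0.417, 0.176 to 0.917) in the mutant and sibling libraries. actn3b appeared higher per length, at 1.18 FPKM in the mutant and 0.57 FPKM in the sibling library. Its counts of 15 in the mutant and 16 in the sibling library did not differ beyond counting error (0.860, 0.396 to 1.86). The FPKM values differed because the listed length of actn3b was 2016 bases in the mutant table and 4785 bases in the sibling table.

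Calcium handling genes showed 3 patterns. The abundant parvalbumins and the calcium pump were lower, the ryanodine receptor genes were low per length and under the limits for a call, and pvalb9 was higher. pvalb1 was at 29.65 FPKM in the mutant and 119 FPKM in the sibling library (count ratio 0.247, 0.200 to 0.303), and pvalb2 at 29.1 FPKM in the mutant and 110 FPKM in the sibling library (0.264, 0.215 to 0.322). pvalb4 was at 1.53 FPKM in the mutant and 6.11 FPKM in the sibling library, with 6 and 22 counts in the mutant and sibling libraries (0.250, 0.0830 to 0.636). atp2a1, which encodes the fast-muscle pump that returns calcium to the sarcoplasmic reticulum, was at 8.82 FPKM in the mutant and 32.4 FPKM in the sibling library (0.231, 0.193 to 0.275). pvalb3 had 1 count in the mutant and 3 in the sibling library, too few to compare.

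pvalb9 was the only member called higher, at 6.53 FPKM in the mutant library and 0.25 FPKM in the sibling library. Its 32 counts in the mutant against 1 in the sibling library gave a ratio of 29.3, with a wide interval of 4.90 to 1195. In the RefSeq assembly GRCz12tu pvalb9, pvalb3 and pvalb2 are consecutive protein-coding genes, so the genes called higher and lower lie in 1 cluster, with pvalb3 between them. Of parvalbumins outside the list, looked up after the member values were seen, pvalb7 and a gene named pvalb had at most 4 counts in either library. pvalb5 was at 5.64 FPKM in the mutant and 10.5 FPKM in the sibling library (0.552, 0.322 to 0.884). pvalb8 was at 8.75 FPKM in the mutant and 6.34 FPKM in the sibling library (1.38, 0.848 to 2.26). The parvalbumin family thus did not share 1 factor.

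The rule named ryr1b, which encodes the release channel of the sarcoplasmic reticulum, and the name table holds 2 genes called ryr1. ENSDARG00000011422 was at 1.0 FPKM in the mutant and 0.72 FPKM in the sibling library, with 102 and 68.0 counts in the mutant and sibling libraries (ratio 1.38, 1.002 to 1.898). That interval also holds 1.21, the count ratio of the median gene past the limits. ENSDARG00000023797 was at 0.18 FPKM in the mutant and 0.23 FPKM in the sibling library (0.627, 0.285 to 1.34). Both channel genes were under the limits, so neither could be called.

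Creatine kinase genes, which buffer ATP in contracting fibres, were lower by a somewhat smaller factor than the summed thick filament genes. ckma was at 19.1 FPKM in the mutant and 47.0 FPKM in the sibling library (count ratio 0.405, 0.339 to 0.482), and ckmb at 18.6 FPKM in the mutant and 52.7 FPKM in the sibling library (0.355, 0.297 to 0.422). Both intervals lie above the summed thick filament ratio of 0.238, but they overlap those of some single myosin genes, such as the myl1 gene ENSDARG00000014196 (0.248 to 0.411). The nicotinamide riboside kinase genes, which act in NAD synthesis, differed from each other. nmrk2, ENSDARG00000067848, was at 0.35 FPKM in the mutant and 7.54 FPKM in the sibling library, with 2 and 40 counts in the mutant and sibling libraries, and its ratio of 0.0459 (0.00537 to 0.177) was the lowest of the called members. The other gene named nmrk2, ENSDARG00000101844, was the most abundant member in both libraries, at 593 FPKM in the mutant and 619 FPKM in the sibling library (0.954, 0.912 to 0.999), and the sign of its small log2 fold of -0.06 turned under TPM (0.09).

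tmod4 and ENSDARG00000101844, singled out after their values were seen, held 56.5% of the counts of the whole set in the mutant library and 29.8% in the sibling library. Over all members the summed counts were 9536 in the mutant and 17998 in the sibling library, a ratio of 0.486 (0.474 to 0.498). Without these 2 genes they were 4145 and 12627, a ratio of 0.301 (0.291 to 0.312). The count ratios of both genes stood apart from that of the thick filament, and their intervals lay below the 1.21 of the median gene past the limits. Both ratios lay above the 0.766 (0.764 to 0.768) of the summed erythroid markers, but single erythroid markers varied. The tmod4 interval of 0.791 to 0.908 held alas2 (0.840), epb41b (0.851), the slc4a1 gene ENSDARG00000012881 (0.867) and cahz (0.878). The ENSDARG00000101844 interval of 0.912 to 0.999 lay above these. hbae1.2 (0.744) was below both intervals and gata1a (1.21) above both. Markers of other lists also fell within the intervals. The tmod4 interval held the epidermal marker cdh1 (0.890) and the neural marker elavl4 (0.875), and the ENSDARG00000101844 interval held the neural marker sox2 (0.990). A ratio within an interval therefore does not name a cell type. Which cells the RNA of tmod4 and ENSDARG00000101844 came from was not tested.

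Myosin assembly genes were of low abundance and 2 of 3 had intervals below 1. unc45b, a myosin chaperone, was at 1.79 FPKM in the mutant and 3.57 FPKM in the sibling library (count ratio 0.498, 0.332 to 0.723). The smyd1 gene ENSDARG00000009280, which encodes a methyltransferase needed for myofibril assembly, was at 0.72 FPKM in the mutant and 2.23 FPKM in the sibling library (0.321, 0.115 to 0.790). The other smyd1 gene, ENSDARG00000091253, was at 0.49 FPKM in the mutant and 0.51 FPKM in the sibling library (0.956, 0.211 to 3.98). Counting intervals below 1 were found for 36 of the 51 listed members and intervals above 1 for 3, against 5.9% and 27.7% of all 21665 genes with a count.

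The myogenic factors were between 0.13 and 1.05 FPKM in the libraries, far below the abundant filament genes. myog, the factor of differentiating myoblasts, was at 0.39 FPKM in the mutant and 1.05 FPKM in the sibling library, with 2 and 6 counts in the mutant and sibling libraries (ratio 0.306, 0.0302 to 1.71). myod1 was at 0.41 FPKM in the mutant and 0.72 FPKM in the sibling library (0.567, 0.164 to 2.40). myf5, the earliest of these factors in muscle precursors, was at 0.70 FPKM in the mutant and 0.13 FPKM in the sibling library, with 6 counts and 1 count (5.50, 0.668 to 253). Their summed counts of 12.6 in the mutant and 14.4 in the sibling library had a ratio of 0.801 (0.369 to 1.95). That interval held 1, the 0.374 of the Z-disc, titin and desmin genes and the 0.486 of all members. It lay above the summed actin ratio of 0.309, which the single intervals of myog and myod1 held. A difference of the myogenic factors was thus not detectable at this depth.

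**Figure D3:**
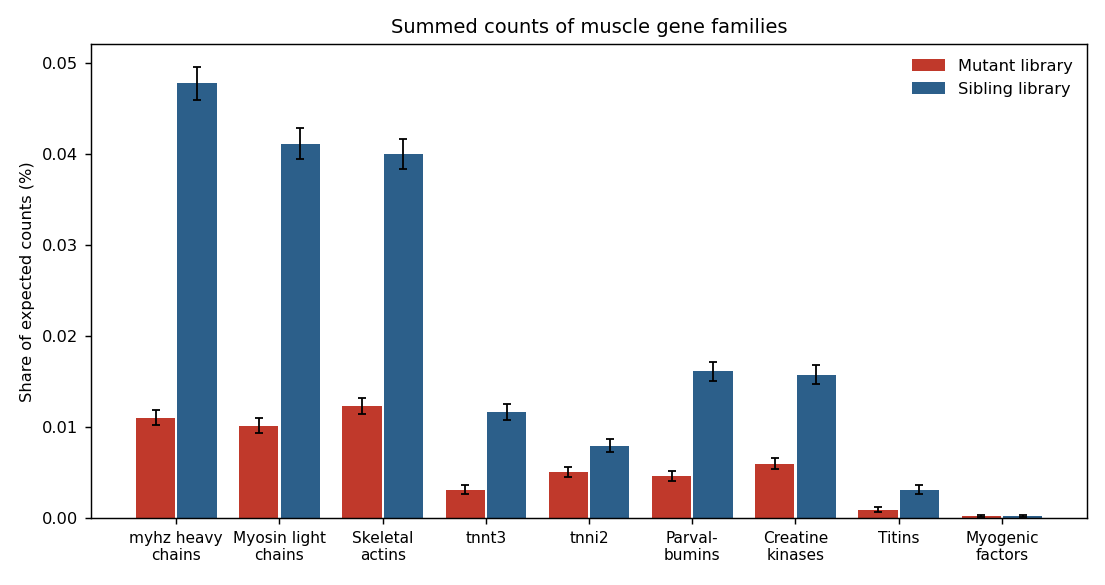
Share of all expected counts (%) held by families of members, mutant library (red) left of sibling library (blue), with exact binomial 95% intervals for counting error. The myhz heavy chains held 0.0110% in the mutant and 0.0477% in the sibling library, and the myogenic factors were close to 0 in both.

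The lower members did not all share 1 factor. Their count ratios ran from 0.0459 to 0.405 with a median of 0.250. The summed thick filament ratio was 0.238 (0.224 to 0.253), and 13 of the 23 intervals held it, 7 lay above it and 3 below it. The genes below it were myhz1.2, myhz2 and nmrk2, and those above it included ckma, ckmb, actc1b, tpma and tnnc2. By role, the summed count ratio was 0.238 for the thick filament and 0.478 (0.458 to 0.499) for the thin filament. It was 0.374 for the Z-disc, titin and desmin genes and 0.288 (0.251 to 0.329) for the parvalbumins. Without tmod4, singled out after its values were seen, the thin filament stood at 0.340 (0.322 to 0.360). Without pvalb9, the only member called higher, the parvalbumins stood at 0.256 (0.222 to 0.294).

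Among the 29 members past the limits the log2 fold was hardly related to the level or the length of the gene, as a description across genes of the same 2 libraries. Pearson's r was -0.11 with log2 mean FPKM and -0.07 with log2 listed length, and Spearman's rho was -0.07 and 0.11. The order of levels within the set was largely the same in both libraries, with a Spearman's rho of 0.911 over the 49 members listed in both. actc1b stood 3.07 times as high as kdrl per length in the mutant library and 36.2 times as high in the sibling library, so actc1b exceeded the gene behind the sorting reporter in both libraries.

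Other genes of muscle were taken from a wider list of 121 genes, of which 112 were listed and 26 passed the limits. Of these 26, 4 were lower and 2 higher, beside the 1.05% and 7.72% of all genes, and their median log2 fold of 0.33 was close to the 0.27 of all genes. The 4 lower genes passed the limits only through the sibling library and the 2 higher genes only through the mutant library, so each passed through the library where it was high. Of the lower genes, tcap, a titin-cap protein of the Z-disc, was at 1.36 FPKM in the mutant and 6.92 FPKM in the sibling library (count ratio 0.195, 0.0879 to 0.391). smyhc1, a slow myosin heavy chain, was at 1.72 FPKM in the mutant and 5.66 FPKM in the sibling library (0.173, 0.0820 to 0.311), and mybphb, a myosin-binding protein, at 3.15 FPKM in the mutant and 9.16 FPKM in the sibling library (0.346, 0.226 to 0.519). The aldoa gene ENSDARG00000034470, a glycolytic aldolase, was at 2.61 FPKM in the mutant and 7.5 FPKM in the sibling library (0.346, 0.211 to 0.550).

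The summed counts of the 7 listed slow-fibre genes had a ratio of 1.18 (1.096 to 1.262), and tpm3 held most of them. Counting intervals lay below 1 for 4 of the 7 and above 1 for tpm3, beside 5.9% and 27.7% of all genes. Without tpm3, left out after its values were seen, the slow-fibre counts summed to 33.3 in the mutant and 121 in the sibling library (0.253, 0.165 to 0.370). tpm3, a tropomyosin gene used in many cell types, was at 113 FPKM in the mutant and 89.4 FPKM in the sibling library (1.26, 1.17 to 1.36), near the median gene. Among further thick filament genes 6 of 11 had intervals below 1 and none above it, with 98.0 summed counts in the mutant and 279 in the sibling library (0.322, 0.253 to 0.407). Excitation-contraction coupling genes had 5 of 17 intervals below 1 and 1 above it. That gene was atp2a2a, the calcium pump of heart and slow muscle that many other cells use, at 16.8 FPKM in the mutant and 8.73 FPKM in the sibling library.

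Z-disc and costamere genes were mixed, with 4 of 25 intervals below 1 and 3 above it, beside 5.9% and 27.7% of all genes. sgcg, a sarcoglycan of the muscle membrane, was at 11.4 FPKM in the mutant and 8.62 FPKM in the sibling library (1.32, 1.16 to 1.5). The sgcg interval also held the 1.21 of the median gene. hspb1, a small heat shock protein, was at 4.69 FPKM in the mutant and 6.60 FPKM in the sibling library (0.599, 0.349 to 1.05). Among genes under the limits, picked after their values were seen, cav3, the muscle caveolin, had 2 counts in the mutant and 18 in the sibling library (0.102, 0.0115 to 0.426), and myoz1b, a calcineurin-binding Z-disc protein, had 1 and 21 (0.0437, 0.00106 to 0.272). The flnc genes, also under the limits, went the other way. ENSDARG00000018820 had 278 counts in the mutant and 66.35 in the sibling library (3.84, 2.94 to 5.13), and ENSDARG00000018566 had 42 and 17 (2.27, 1.26 to 4.25). Of 12 listed further thin filament genes, 3 intervals lay above 1 and none below it, beside 27.7% and 5.9% of all genes. The tropomyosin gene tpm4 was among the 3, at 17.7 FPKM in the mutant and 10.5 FPKM in the sibling library (1.68, 1.39 to 2.02). The others were under the limits. The xirp2 gene ENSDARG00000071113 had 125 counts in the mutant and 37.5 in the sibling library (3.05, 2.08 to 4.46). lmod3 had 6 counts in the mutant library and was not listed in the sibling library. The tropomyosin gene tpm2 was at 22.9 FPKM in the mutant and 13.95 FPKM in the sibling library, but its count ratio was 1.15 (0.908 to 1.46), with listed lengths of 1152 bases in the mutant and 1622 bases in the sibling table. The count ratio of tpm1, at 10.7 FPKM in the mutant and 9.38 FPKM in the sibling library, was 1.14 (0.845 to 1.54), so the intervals of both held 1 and the 1.21 of the median gene. Metabolic genes included the abundant aldoa gene ENSDARG00000011665 at 144 FPKM in the mutant and 82.0 FPKM in the sibling library (1.67, 1.52 to 1.83) and the pdk2 gene ENSDARG00000020876, a pyruvate dehydrogenase kinase, at 17.5 FPKM in the mutant and 9.53 FPKM in the sibling library (1.83, 1.54 to 2.17).

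The regulators of the muscle lineage did not share the difference of the filament genes. Of 18 listed, none had an interval below 1 and 8 had one above it, beside 5.9% and 27.7% of all genes. Their summed counts had a ratio of 1.64 (1.52 to 1.77), which is 1.35 times that of the median gene. The mef2c gene ENSDARG00000029764, a transcription factor of muscle, heart and endothelial cells, was called higher at 17.5 FPKM in the mutant and 3.38 FPKM in the sibling library. Its count ratio was smaller, at 2.84 (2.19 to 3.69), since its listed length was 2243 bases in the mutant table and 4050 bases in the sibling table. six4a, a homeodomain factor, was at 7.42 FPKM in the mutant and 2.54 FPKM in the sibling library (3.02, 2.001 to 4.668), and the prdm1 gene, which in zebrafish specifies slow fibres and is used in many other cells, was at 16.2 FPKM in the mutant and 8.5 FPKM in the sibling library (1.899, 1.59 to 2.28).

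The pax7 genes, which mark muscle progenitors and neural crest, did not differ beyond counting error. ENSDARG00000100398 had 55.2 counts in the mutant and 41 in the sibling library (1.23, 0.806 to 1.89), and ENSDARG00000070818 had 47 and 54 (0.798, 0.528 to 1.202). Of the regulators under the limits, mymx and mymk are given after their values were seen. mymx had 21 counts in the mutant library and was not listed in the sibling library, with a count ratio interval from 4.78 upward. mymk was at 1.88 FPKM in the mutant and 1.19 FPKM in the sibling library (1.58, 0.781 to 3.29), so its interval held 1. Several of the regulators are also used outside muscle, and endothelial markers stood higher in the mutant library as given above. Which cells carried the regulators, mymx and mymk included, was not tested. Of the synapse genes, all at or under 3.30 FPKM, 2 of 9 had intervals above 1 and none below, close to the 27.7% and 5.9% of all genes.

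**Figure D4:**
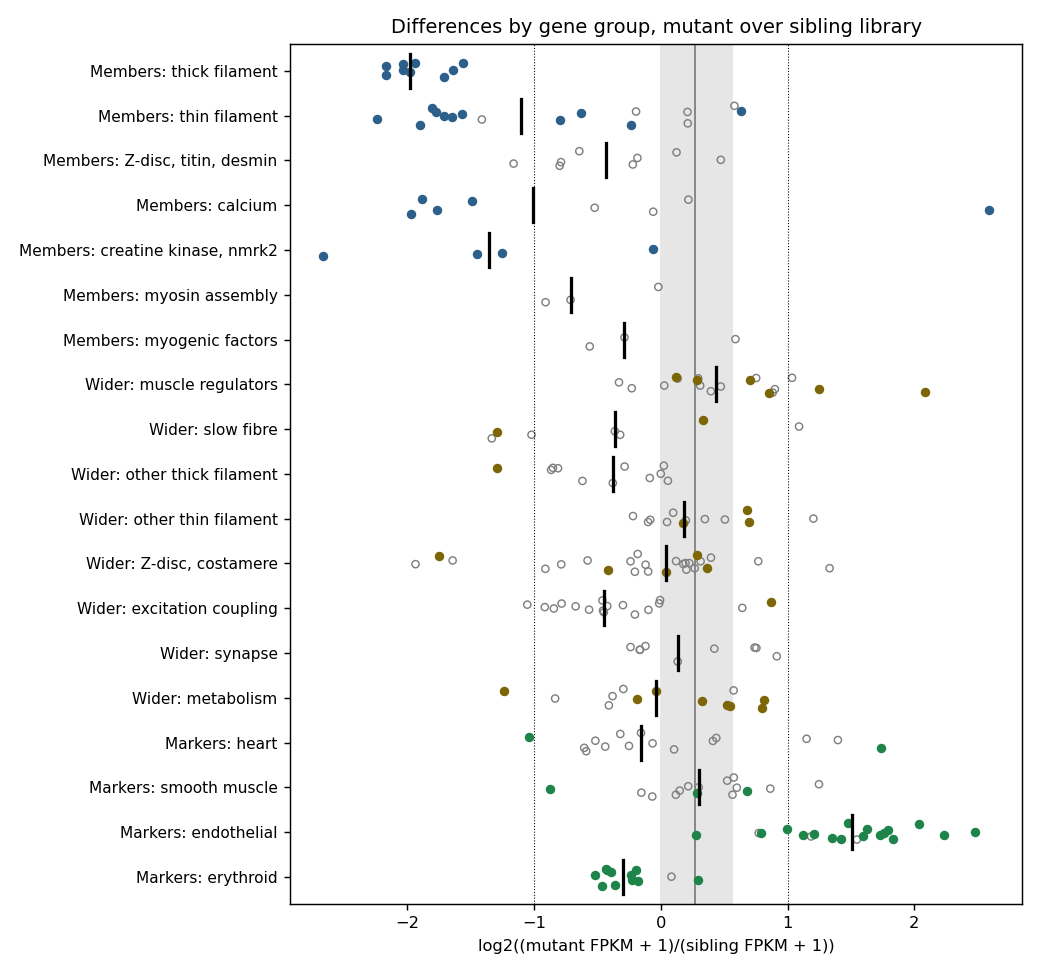
Log2 fold on FPKM + 1, mutant over sibling, for the listed genes of each member role, each wider muscle class and some marker lists. The marker lists drawn are heart, smooth muscle, endothelial and erythroid. The epidermal, neural, cartilage and fin, and sclerotome and fibroblast lists are not drawn. Filled points passed the limits, open points did not, black bars are medians over the listed genes, dotted lines mark 2-fold, and the grey band and line are the interquartile range and the median (0.27) of all 8640 genes. The thick filament points all lie left of -1, and the regulator points lie mostly to the right of 0.

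Heart and smooth muscle genes, the kinds of muscle closest to the set, were set beside the members. Of 15 listed heart genes the median log2 fold was -0.16, and their summed counts had a ratio of 1.12 (0.930 to 1.34). That sum joins unlike parts, split here after the values were seen. The heart list also named tnni1b, but the genes named tnni1 were counted as members and are left out here. The 8 listed contractile genes of the heart had 88.6 counts in the mutant and 166 in the sibling library, a ratio of 0.490 (0.376 to 0.640). That interval held the 0.486 of all members. It lay above the 0.301 of the members without tmod4 and ENSDARG00000101844 and above the 0.238 of the thick filament. Without actc1a the heart ratio was 0.611 (0.349 to 1.03). The 5 transcription factors had 182 counts in the mutant and 53.1 in the sibling library, a ratio of 3.15 (2.31 to 4.36). Among these, gata5 had 41 and 6 counts and gata4 had 19.9 and 4.47 counts in the mutant and sibling libraries. The rise was not shared by all: tbx20 had 7 and 13 counts (0.494, 0.167 to 1.33), and the interval of tbx5 held 1 (1.84, 0.807 to 4.02). myl7, the heart-specific light chain gene, was not listed in the mutant library and had 3 counts in the sibling library, and nppa and nppb were not listed in the mutant library either. actc1a, an actin gene close in sequence to actc1b, was lower at 7.80 FPKM in the mutant and 17.1 FPKM in the sibling library (0.455, 0.328 to 0.615), whereas hand2, a transcription factor of heart and other mesoderm, was higher at 9.06 FPKM in the mutant and 2.01 FPKM in the sibling library (4.49, 2.72 to 7.79). Smooth muscle genes stood close to the background: of 15 listed, 5 intervals lay above 1 and 1 below it, beside 27.7% and 5.9% of all genes, and the median log2 fold was 0.30, beside 0.27 for all genes past the limits. The tagln gene ENSDARG00000033466, an actin-binding protein of smooth muscle, was at 102 FPKM in the mutant and 83.55 FPKM in the sibling library (1.15, 1.04 to 1.28), and acta2 had 2 counts in the mutant library and was not listed in the sibling library. The summed smooth muscle ratio was 1.45 (1.36 to 1.55), which is 1.19 times that of the median gene. It lay above that of the members, 0.486 (0.474 to 0.498), beyond counting error in these 2 libraries. Most of the smooth muscle counts were those of notch3, with 1207 in the mutant and 675 in the sibling library, and of that tagln gene, with 798 and 634.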

How the data were processed

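Each deposited table holds 1 library and gives, for every Ensembl gene listed, its length and 2 measures of abundance. The submitters' processing notes name bcl2fastq 2.16, BWA, Bowtie2, RSEM and the build GRCz10, without the role of each. Expected counts were produced by the authors and are not normalized. RSEM divides a read that fits several genes, and 73.8% of the mutant and 74.3% of the sibling counts were whole to within 0.005. FPKM values, also as deposited, are relative to transcript length and library size, with no scaling between libraries. The protocol in the labels describes no marking of strand.

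A gene missing from 1 table was set to 0 there. Symbols came from a table of Ensembl IDs that named 19802 of 21699 genes (91.3%), and a symbol without its paralog letter, or des for desmin, was accepted where no gene had the full one. Gene order in the RefSeq assembly GRCz12tu was used for the myhz and parvalbumin genes, and no sequences were compared. Count ratios are per library total, with exact conditional binomial 95% intervals of the rounded counts (Python 3.11.15, scipy 1.17.1). TMM factors came from edgeR 4.0.16. The conditions could not be tested against each other with a single library of each. The calculations were tested on simulated libraries. The members and lists were chosen with earlier results of these data known. All members are accounted for. Of the wider list, up to 3 genes per class past the limits with the largest absolute log2 fold were named. Also named were smyhc1, the pax7 genes, cav3, myoz1b, the flnc genes, xirp2, lmod3, mymx and mymk. Of the marker lists some of a fixed few were named, and further heart, erythroid, smooth muscle, epidermal and neural genes outside that few. Other settings tried were other scalings, pseudocounts, limits on low values and exact symbols.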

Additional observations from a re-analysis of the deposited data

How the results depend on the processing

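Depth limits the myogenic factors, tnni1 and most members under the limits, whose intervals span more than 2-fold. No paired analysis was possible because there was 1 library per group. Over 13 other settings the number of members called lower was 17 to 25, against 23 as reported, and 21 of the 23 were called lower in each setting that kept them. The exceptions, myl13 (-0.97) and pvalb4 (-0.77), missed 2-fold with a pseudocount of 5. neb was called lower in 4 settings, with a log2 fold of down to -1.07. Of the members' single values, 311 of 358 moved by less than their counting interval and none turned among those called. The members' median was -0.91 with no limit on low values, where genes under 1 FPKM enter. The member called higher, pvalb9, was lost (0) with a limit of 20 FPKM and with limits on the mean of both libraries, an alternative added after the data were seen.

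Over all genes, 185 were lower and 319 higher once centred on the median gene, 173 and 353 with TMM factors, and 178 and 348 with median-of-ratios factors. Thus 63.3% to 67.1% of calls were higher in these settings, against 88.0% as deposited. Without the 10 genes of highest level 142 were lower, and 77.7% of calls were higher. With a pseudocount of 5 there were 40 lower and 193 higher, with a limit of 1 FPKM or none 292 and 1205, and with a limit of 20 FPKM 29 and 184. Of the wider muscle genes, 9 were lower and 6 higher with a limit of 1 FPKM or none, 0 and 1 with a pseudocount of 5, 0 and 0 with a limit of 20 FPKM, which leaves 4 genes, and 2 and 1 with limits on the mean. Only 1 was higher once centred, and 1 with symbols matched as written. The causes of these moves, beyond the number of genes each limit leaves, were not tested.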
